A study of Mus musculus with 3 samples.

Results

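The genes described here are 28 components of the PI3K, AKT and mTOR signalling pathway, chosen by name for their place in the pathway. All 28 were found among the 19744 genes of the count tables, and they were read in the total of each tumour and in barcodes of at least 200 counts. Those barcodes were split by detection of Neurod1, a differentiation factor of the granule neuron lineage, and of the proliferation genes Mki67 or Top2a. The samples were medulloblastomas of 3 mice of genotype hGFAP-Cre/SmoM2 (G-Smo) on a C57BL/6 background, harvested at P16. SmoM2 encodes a constantly active Smoothened, the signal transducer of Hedgehog, and Cre under the human GFAP promoter switches it on. That promoter is active in many neural progenitors and so reaches cells beyond the granule lineage. Every mouse had palbociclib, a drug that blocks CDK4/6 and so entry into S phase, in a nanoparticle form (POx-palbo) of 25 mg/kg, given once a day for 5 days into the peritoneum from P10. The 3 tumours form 1 group, so all comparisons were made between barcodes of the same tumours, and none with untreated tumours.

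PI3K makes a membrane lipid that recruits the kinase AKT, and AKT relieves the brake that the TSC1 and TSC2 proteins place on the small GTPase RHEB. RHEB activates mTOR in the complex built on RAPTOR, at the lysosome, where the LAMTOR scaffold and the RAG GTPases bring the complex in response to amino acids. That complex then drives translation through S6 kinases and through release of the cap-binding protein eIF4E from the 4E-BP repressors, while the complex built on RICTOR acts back on AKT. The pathway is the target of sapanisertib, an inhibitor of the mTOR kinase, named in the title of the study as the partner of palbociclib. Much of its control is by phosphorylation, which mRNA counts do not measure.

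Depth was low. The tables held 8827, 2330 and 9802 barcodes with 1150463, 248617 and 1324350 counts in tumours 1, 2 and 3, of which 1060, 148 and 1059 barcodes reached 200 counts. These deep barcodes gave 466239, 46315 and 398419 counts. Mitochondrial genes took 3.97%, 11.4% and 5.61% of all counts, so tumour 2 stood apart in depth and in mitochondrial share. Libraries shared 3, 8 and 3 barcode sequences (tumours 1 and 2, 1 and 3, 2 and 3), and 0 of these were deep in both. Of the 9 progenitor markers listed, 9 had counts in deep barcodes, among them Atoh1, and so did 9 of 10 markers of differentiating granule neurons, with Gabra6, a gene of mature granule cells, at 0.

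The members were sparsely counted. They had 5500 counts over the 3 tumour totals, and their summed level was 2084, 1541 and 2054 CPM (counts scaled to a common total, here all counts of the tumour), a mean of 1893 ± 305 (SD, n = 3). Of the 28 genes, 16 had at least 100 counts in all and 12 had fewer. A CPM value is a share of the RNA counted, so fewer cells expressing a gene and less of its mRNA per cell cannot be told apart in the totals. Intervals for single tumours below are exact 95% Poisson intervals, which cover counting error only.

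In the PI3K arm, the catalytic subunit gene Pik3ca was found at 90.4, 64.4 and 96.7 CPM in tumours 1, 2 and 3 (104, 16 and 128 counts), 83.8 ± 17.1 (SD, n = 3). Pik3r1, which encodes the main regulatory subunit, was at 69.5, 76.4 and 89.9 CPM. For both subunit genes the intervals of the 3 tumours overlapped. The other regulatory subunit gene, Pik3r2, was at 34.8, 20.1 and 43.0 CPM, and the other catalytic gene, Pik3cb, had only 24 counts in all. Of the AKT kinase genes, Akt2 was at 76.5, 44.2 and 57.4 CPM, 59.4 ± 16.2 (SD, n = 3), while Akt1 had 64 counts in all. Reads of Akt2 may be shared with a processed copy, Akt2-ps, that the tables also list.

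The RHEB step was read more deeply than the mTOR complexes themselves. Rheb was at 133, 177 and 143 CPM (153, 44 and 190 counts), 151 ± 23.0 (SD, n = 3), and its intervals overlapped in all tumours. Tsc1, which encodes the stabilising partner in the TSC complex, was at 61.7, 32.2 and 60.4 CPM. Tsc2, which encodes the part that turns RHEB off, had 45 counts in all, at 26.1, 8.05 and 9.82 CPM. Its exons overlap those of Pkd1 on the opposite strand in GENCODE M21, and the handling of strand in counting is not given in the sources used here. The kinase gene Mtor itself had 20, 2 and 6 counts, Rptor 14, 3 and 12, Rictor 34, 7 and 28, Mlst8 19, 2 and 16, and the inhibitory partner gene Deptor 19, 3 and 25. Counts as low as these can show only large differences between barcodes.

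In the amino acid arm, genes ran in different orders over the tumours. Lamtor2, which encodes a subunit of the lysosomal scaffold, was at 136, 225 and 159 CPM (157, 56 and 211 counts), 174 ± 46.1 (SD, n = 3), and tumour 2 was the highest. Lamtor1, which encodes the subunit that anchors the scaffold to the membrane, ran in the other order, at 99.96, 36.2 and 64.9 CPM (115, 9 and 86 counts). The GTPase gene Rraga was likewise lowest in tumour 2, at 114, 40.2 and 72.5 CPM. For each of these 3 genes at least 1 pair of tumours had intervals that did not overlap. Rragc, its partner, had 9, 9 and 16 counts.

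Among the inhibitors that respond to stress, Ddit4, which encodes an activator of the TSC complex induced by hypoxia and energy stress, had the widest spread relative to its mean among the 16 better counted members. It was at 70.4 CPM in tumour 1 (81 counts, interval 55.9 to 87.5), 16.1 in tumour 2 (4 counts, 4.38 to 41.2) and 95.9 in tumour 3 (127 counts, 79.9 to 114). The interval of tumour 2 lay below both others. Sesn3, of the sestrin family that restrains the RAG GTPases, was at 56.5, 40.2 and 68.7 CPM with intervals that overlapped. Sesn1 and Sesn2, the sestrin genes known as targets of p53, had 87 and 34 counts in all.

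The output arm held the best counted member. Eif4g1, which encodes the scaffold of the cap-binding complex, was at 472, 298 and 512 CPM (543, 74 and 678 counts), 427 ± 114 (SD, n = 3), and tumour 2 lay below tumours 1 and 3 with no overlap of intervals. Rps6kb1, the S6 kinase gene, was likewise lowest in tumour 2, at 220, 137 and 220 CPM (253, 34 and 291 counts), and so was the cap-binding gene Eif4e, at 123, 60.3 and 111 CPM. The 4E-BP genes were at 49.5, 32.2 and 43.8 CPM for Eif4ebp1 and at 45.2, 32.2 and 31.7 CPM for Eif4ebp2, with overlapping intervals. Rps6kb2 had 63 counts in all. Exons of Rps6kb1 overlap Rnft1, those of Rps6kb2 overlap Coro1b and Ptprcap, and those of Mlst8 overlap Bricd5, each on the opposite strand. Of the 16 members with at least 100 counts, intervals overlapped across all tumours in 9 and did not in 7, as the plot of levels by tumour shows. The same share over all genes was not counted, so 7 of 16 is not read as a trait of these genes.

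**Figure D1:**
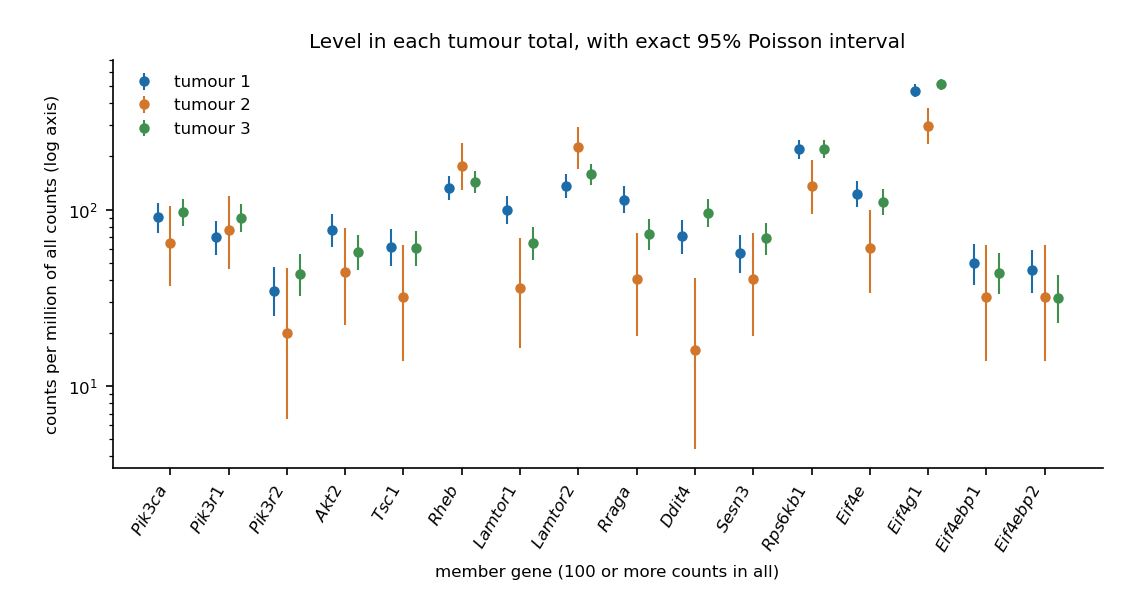
Level of the 16 members with at least 100 counts, in CPM of all counts of the tumour on a log axis, for each of the 3 tumours (points) with exact 95% Poisson intervals (bars). Ddit4 in tumour 2, at 16.1, lies below the intervals of the other tumours, and Eif4g1 is at 298 to 512.

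The first comparison asked whether these genes differ between barcodes with and without a Neurod1 count, as a reading of granule neuron differentiation. No member passed the test, and for most of them the counts were too few to show a change of moderate size. Detection of Neurod1 put 330, 51 and 407 barcodes on one side and 730, 97 and 652 on the other. Thinned to 200 counts per barcode, only 231, 38 and 312 had a Neurod1 count. The side without Neurod1 can thus hold cells that express it, and the changes and intervals compare barcodes by detection, not cell states. Counts were summed per tumour and side and tested by edgeR's quasi-likelihood test with tumour as a block, leaving Neurod1 out. Of the 28 members, 20 reached the minimum of 20 summed counts. Of these 20, 0 passed a Benjamini-Hochberg adjusted p of 0.05 with edgeR, and 0 had an unadjusted p under 0.05. Of all 7310 genes tested, edgeR called 0.848% (62 genes), and 561 had an unadjusted p under 0.05. A count of 0 called among 20 is thus near the background and says nothing particular of the members. DESeq2 and limma-voom called 0 of all 7310 genes, members included (0 and 1 members had an unadjusted p under 0.05). The log2 changes of the 20 had a median of 0.19, with 14 above 0, against a median of -0.01 and 3591 above 0 over all genes tested.

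Eif4g1 gave the narrowest interval. It was at 687, 260 and 677 CPM in Neurod1 barcodes and at 770, 592 and 850 CPM in the others (104, 5 and 109 against 242, 16 and 201 counts). It was lower with Neurod1 in each tumour, though the ranges of both sides overlapped. The log2 change was -0.32 (SE 0.19, 95% interval -0.68 to 0.05, edgeR adjusted p = 0.7601). That interval leaves out a log2 change of 1 in either direction. The same was true of Rps6kb1 (0.14, -0.43 to 0.70) and, only just, of Tsc1 (0.17, -0.66 to 0.9994), and of no other tested member. These intervals rest on a spread shared over all genes, so they do not measure a gene's own spread between tumours. The change of Tsc1 was -0.24 without tumour 3 and 0.44 with barcodes of at least 100 counts.

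For the other members the counts left room for large differences. Rheb was at 85.8, 52.0 and 80.7 CPM with Neurod1 and at 85.9, 259 and 114 CPM without. No Neurod1 side reached a side without it, but the values in tumour 1 were nearly equal and that of tumour 2 came from 1 and 7 counts. Its log2 change was -0.45 (SE 0.42, edgeR adjusted p = 0.9255). Rictor was at 59.4, 104 and 49.7 CPM with and 41.4, 0 and 21.1 CPM without Neurod1 (9, 2 and 8 against 13, 0 and 5 counts), a log2 change of 0.96 (SE 0.64, adjusted p = 0.8266). Rheb and Rictor were the only tested members whose sides did not overlap. The share of all genes without overlap was not counted, so nothing particular of the members is read from this. Ddit4 was at 79.2, 0 and 124 CPM with and 66.8, 37.0 and 38.0 CPM without (0.84, SE 0.49, adjusted p = 0.7561), higher in 2 of 3 tumours. Pik3ca had 27, 1 and 22 counts with Neurod1 against 29, 2 and 26 without (0.60, SE 0.37, adjusted p = 0.7941). The 8 members below the count minimum had between 9 and 18 counts each in deep barcodes, among them Mtor with 3 counts with and 9 without Neurod1, Deptor with 4 and 14, and Akt1 with 9 and 9.

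The remaining tested members had adjusted p-values from 0.8986 to 0.9962 in edgeR with Neurod1. In the PI3K and AKT arm the log2 changes were 0.37 for Pik3r1 (SE 0.42), 0.90 for Pik3r2 (SE 0.70) and -0.19 for Akt2 (SE 0.51). Tsc2 gave 0.06 (SE 0.86). Among the lysosomal scaffold and RAG genes they were 0.44 for Lamtor1 (SE 0.55), 0.28 for Lamtor2 (SE 0.48) and -0.08 for Rraga (SE 0.47). The sestrin genes Sesn1 and Sesn3 gave 0.22 (SE 0.75) and 0.08 (SE 0.53). In the output arm they were -0.12 for Rps6kb2 (SE 0.74), 0.21 for Eif4e (SE 0.41), 0.38 for Eif4ebp1 (SE 0.75) and -0.33 for Eif4ebp2 (SE 0.72). Most of these standard errors were larger than the change beside them.

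The second comparison asked the same of barcodes with and without a count of Mki67 or Top2a, as a reading of proliferation. Again no member passed, and only 4 of the 20 intervals left out a log2 change of 1. There were 343, 58 and 377 barcodes with and 717, 90 and 682 without such a count, and these 2 genes were left out of the test. Thinned to 200 counts per barcode, only 239, 48 and 296 had such a count, so the limit of detection holds here too. The 20 tested members included 0 that passed with edgeR and 0 with an unadjusted p under 0.05. Over all 7309 genes edgeR called 2.3% (168 genes), with 1.64% higher and 0.657% lower, so the count of members called is near the background too. An unadjusted p under 0.05 with edgeR was found for 671 of all genes. DESeq2 and limma-voom called 34 and 27 of all genes and 0 members, with 0 at an unadjusted p under 0.05, but DESeq2 gave 12 of the 20 members no adjusted p. The median log2 change of the 20 was -0.08 with 9 above 0, and that of all genes tested was -0.01.

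Eif4g1 was at 853, 265 and 934 CPM with proliferation mRNA and at 675, 636 and 665 CPM without (153, 6 and 159 against 193, 15 and 151 counts). It was higher on the proliferating side in tumours 1 and 3 and lower in tumour 2, where that side had 6 counts. The log2 change was 0.32 (SE 0.17, 95% interval -0.02 to 0.66, edgeR adjusted p = 0.5851). Rps6kb1 (0.21, -0.37 to 0.78), Pik3ca (-0.20, -0.97 to 0.57) and Tsc1 (0.00, -0.95 to 0.94) also had intervals that leave out a log2 change of 1. These intervals rest on a spread shared over all genes, so they do not exclude such a change for a gene that varies between tumours. In tumour 2 Rps6kb1 had 7 counts with proliferation mRNA and 0 without.

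Rraga was the only tested member whose sides did not overlap here, and the share of all genes without overlap was again not counted. Rraga was at 61.3, 44.2 and 41.1 CPM with and 112, 84.8 and 79.3 CPM without proliferation mRNA (11, 1 and 7 against 32, 2 and 18 counts). Its log2 change was -0.88 (SE 0.51, 95% interval -1.88 to 0.12, edgeR adjusted p = 0.674). The largest estimate was that of Eif4ebp2, which encodes the 4E-BP prominent in brain, with 6, 0 and 2 counts with and 16, 0 and 9 without (-1.05, SE 0.74, adjusted p = 0.8102). The remaining tested members had edgeR adjusted p-values from 0.9021 to 0.9989. Pik3r1 gave -0.43 (SE 0.46), Pik3r2 -0.27 (SE 0.72), Akt2 -0.48 (SE 0.53), Tsc2 0.06 (SE 0.79), Rheb 0.34 (SE 0.42) and Rictor 0.54 (SE 0.64). Rictor, in the second mTOR complex, was higher with proliferation mRNA in each tumour, from 18 counts against 19. In the amino acid and stress arm the changes were 0.25 for Lamtor1 (SE 0.56), 0.31 for Lamtor2 (SE 0.49), 0.02 for Ddit4 (SE 0.51), -0.78 for Sesn1 (SE 0.74) and -0.58 for Sesn3 (SE 0.56). In the output arm they were 0.34 for Rps6kb2 (SE 0.70), -0.15 for Eif4e (SE 0.44) and -0.27 for Eif4ebp1 (SE 0.74). Of the members too low to test, Mtor had 6 counts on each side, Rptor 5 with and 6 without, Mlst8 4 and 10, Deptor 8 and 10, Akt1 4 and 14, Pik3cb 4 and 9, Rragc 3 and 6, and Sesn2 6 and 5. In the plot of changes in both splits, every interval of the 20 members includes 0.

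**Figure D2:**
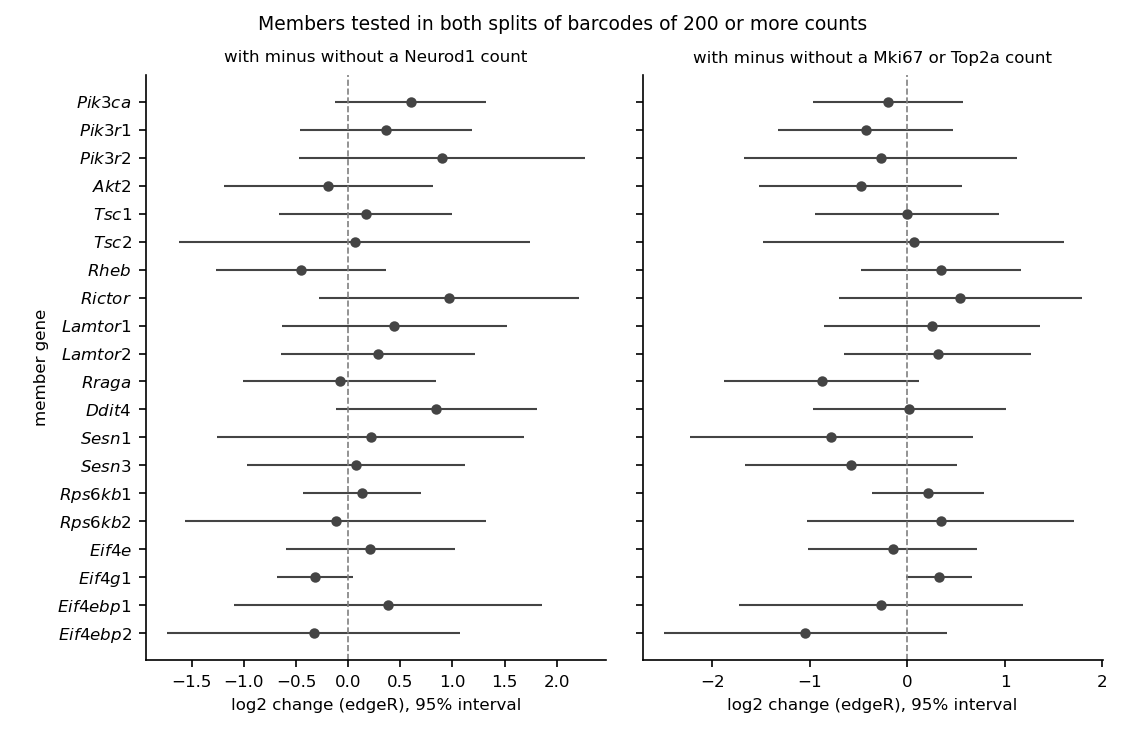
Log2 change from edgeR (points) with 95% intervals (bars) of the 20 members tested, in barcodes with against without a Neurod1 count (left) and with against without a Mki67 or Top2a count (right), 3 tumours each. All intervals include 0, and that of Eif4g1 is the narrowest in both panels. The intervals rest on a spread shared over all genes.

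The sides of each split differed in more than the gene that defines them. Markers of differentiating granule neurons took 6963, 4458 and 5803 CPM with Neurod1 and 2995, 4219 and 2929 CPM without. Cell cycle markers took 8473, 5897 and 7845 CPM with Mki67 or Top2a and 2229, 2713 and 3087 CPM without. Both marker lists were therefore higher on the side named for them in every tumour, though nearly equal for the neuron list in tumour 2. The lists were chosen with earlier results of these data known, so this is a description and not independent support for those names. Barcodes with proliferation mRNA were also deeper, with medians of 447, 274.5 and 359 counts against 318, 246.5 and 284. All 8 microglial markers listed had counts in deep barcodes, and in tumour 2 they took 3732 CPM with Neurod1 against 999 without. In the other tumours they took 414 and 383 CPM with Neurod1 against 614 and 968 without. In tumour 2 they also took 3433 CPM with proliferation mRNA against 890.1 without. Oligodendrocyte lineage markers in tumour 2 took 2436 CPM with Neurod1 against 259 without, and 220.1 with proliferation mRNA against 2077 without. Endothelial or mural markers there took 1140.4 CPM against 296 in the Neurod1 split and 1012 against 297 in the proliferation split. In tumour 2 the sides of each split thus differed in RNA of other cell types, from few barcodes, and in the proliferation split the lists went both ways. Tumour 1 was uneven too: astrocyte and oligodendrocyte lineage markers took 377 and 305 CPM with proliferation mRNA against 941 and 766 without. Mitochondrial genes took less with Neurod1 in each tumour, at 4.94%, 7.75% and 5.37% of counts against 5.98%, 13.5% and 6.93%. With barcodes called as another cell type by their markers left out, or with every barcode thinned to 200 counts, 0 members passed with edgeR in either split. The call took out 48, 9 and 24 deep barcodes, and cells of other types without a call remain. In that run 0 and 1 members had an unadjusted p under 0.05 in the Neurod1 and proliferation splits. Over all genes 594 of 6998 and 686 of 6997 did. At 200 thinned counts 13 members could still be tested, with 0 at an unadjusted p under 0.05 in either split.

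Dividing the deep barcodes by both splits at once gave 4 sets per tumour. Eif4g1 was at 721 ± 26.9 CPM (SD, n = 3) with neither mark, 566 ± 101 with Neurod1 alone, 765 ± 317 with proliferation mRNA alone and 562 ± 403 with both, the last from 87 counts. Rheb was at 157 ± 159, 68.8 ± 60.1, 150 ± 25.0 and 64.5 ± 32.2 CPM in the same order. In the sets with proliferation mRNA the SD of Eif4g1 was larger than the differences between the 4 means. A term for the difference of the Neurod1 change between barcodes with and without proliferation mRNA, added after the values had been seen, passed for 0 of 20 members by edgeR. Sesn1 and Rheb had an unadjusted p under 0.05 there, as did 253 of all 7308 genes, and 1 of 7308 genes (0.0137%) passed. Nothing particular of the members is read from these 2.

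The list of 90 other pathway genes, of which 89 were in the tables, also gave no call. In both splits 58 of them could be tested and 0 passed with edgeR, with DESeq2 or with limma-voom, though DESeq2 gave 39 of them no adjusted p in the proliferation split. In the Neurod1 split 6, 0 and 4 of them were at an unadjusted p under 0.05 in these tools, and in the proliferation split 3, 0 and 2. Over all genes, edgeR had 561 of 7310 and 671 of 7309 at such a p, and called 0.848% and 2.3%. A count of 0 among 58 is thus near the background and says nothing particular of these genes. The median log2 changes of the 58 were 0.09 and 0.07. Gsk3b, which encodes a kinase that AKT inhibits, had the most counts among the kinase targets and gave 0.51 with Neurod1 (SE 0.22, edgeR adjusted p = 0.4897) and -0.58 with proliferation mRNA (SE 0.23, adjusted p = 0.2383). Pik3r3, which encodes a further PI3K regulatory subunit, gave 0.44 and -0.83 in the same order (adjusted p = 0.8546 and 0.2621). The helicase gene Eif4a1 and Eif4g2, an eIF4G relative, had 653 and 626 counts in the deep barcodes. They gave -0.40 (adjusted p = 0.5832) and 0.34 (0.714) with Neurod1, and 0.10 and 0.04 with proliferation mRNA.

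Between deep and shallow barcodes 3 members passed the test, about the share of all genes that did. This comparison, added after the levels had been seen, set barcodes of at least 200 counts against the 7767, 2182 and 8743 barcodes below 200 in the same tumours, by the same edgeR test with tumour as a block. All 28 members could be tested. Eif4g1 and Tsc1 were higher in deep barcodes and Lamtor2 was lower, and the other members did not pass. Over all 10623 genes tested, edgeR called 8.08%, with 2.51% higher and 5.56% lower, so 3 of 28 is near the background share. The median log2 change was -0.08 for the members and 0.00 for all genes.

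Eif4g1 was at 742, 453 and 778 CPM in deep and at 288, 262 and 397 CPM in shallow barcodes. Every deep value lay above every shallow value, and the log2 change was 1.03 (SE 0.24, edgeR adjusted p = 0.001182). Tsc1 was at 85.8, 64.8 and 100.4 CPM in deep and 45.3, 24.7 and 43.2 CPM in shallow barcodes, again with no overlap. Its log2 change was 1.06 (SE 0.34, adjusted p = 0.02824), but it did not pass without a filter on low counts (adjusted p = 0.07356) or without the tumour block (0.1979), and DESeq2 gave it no adjusted p. Lamtor2 ran the other way, at 53.6, 130 and 87.8 CPM in deep and 193, 247 and 190.1 CPM in shallow barcodes. It fell in all tumours, with a log2 change of -1.43 (SE 0.28, 95% interval -1.98 to -0.88, adjusted p = 7.228e-05). Without tumour 1, and without tumour 3, edgeR called 0 members (3 and 2 had an unadjusted p under 0.05) and 32 of 8747 and 0 of 8849 genes in all. Without tumour 2 it called 6 members and 1755 of 10357 genes. Without the tumour block it called 0 members (5 at an unadjusted p under 0.05) and 4 genes in all.

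Of the members that did not pass, 4 had an unadjusted p under 0.05 with edgeR. With those that passed this made 7 of 28 members, against 2302 of all 10623 genes tested, so this count is near the background too. Rheb was at 85.8, 173 and 100.4 CPM in deep and 165, 178 and 162 CPM in shallow barcodes (-0.75, SE 0.27, edgeR adjusted p = 0.06612), lower in each tumour but nearly equal in tumour 2. Lamtor1 gave -0.79 (SE 0.34, adjusted p = 0.1298), Eif4ebp1 -0.87 (SE 0.41, adjusted p = 0.1788) and Rictor 1.13 (SE 0.46, adjusted p = 0.1141). Eif4ebp1 had 16, 0 and 12 counts in deep and 41, 8 and 46 in shallow barcodes, so all its values were lower in the deep ones. Rps6kb1 was at 187, 151 and 221 CPM in deep and 243, 133 and 219 CPM in shallow barcodes, with a log2 change of -0.18 whose 95% interval ran from -0.67 to 0.31.

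**Figure D3:**
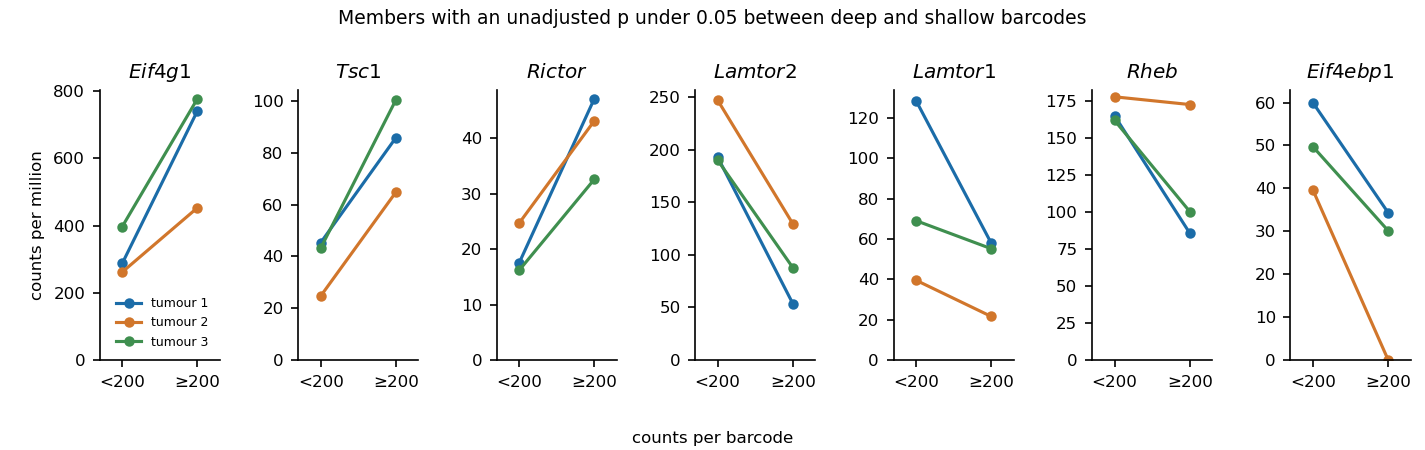
Level in CPM in barcodes below 200 counts and of 200 or more counts, joined by a line for each of the 3 tumours, for the 7 members with an unadjusted p under 0.05 in this comparison. Eif4g1, Tsc1 and Rictor are higher in deep barcodes in all 3 tumours, and Lamtor2, Lamtor1, Rheb and Eif4ebp1 are lower in all 3. Among these, Eif4g1, Tsc1 and Lamtor2 passed the adjusted test. Over all genes tested by edgeR, 2302 of 10623 had an unadjusted p under 0.05.

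The members' changes with depth followed the length of their transcripts. With the longest transcript of each gene in GENCODE M21, Spearman's rho between length and log2 change was 0.80 over the 28 members and 0.49 over the 10084 tested genes with a length (94.93% of 10623), and with the span of the gene it was 0.56 and 0.34. These are correlations across genes, which share libraries and depth and are not replicates, so no p is given. Genes were cut into 4 bins of nearly equal size by length. In the bin of shortest transcripts, of at most 1832 bases, the median log2 change was -0.56, and all 5 members there were lower in deep barcodes (Lamtor2 with 668 bases, Lamtor1 with 1119, Rraga with 1618, Ddit4 with 1755 and Rheb with 1784). In the bin of longest transcripts, from 4708 bases, the median was 0.36 and 10 of 14 members were higher, among them Eif4g1 with 5638 bases, Tsc1 with 7702 and Rictor with 9312. Eif4e, Eif4ebp2, Rps6kb1 and Sesn3 were the other 4, with log2 changes from -0.38 to -0.11.

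**Figure D4:**
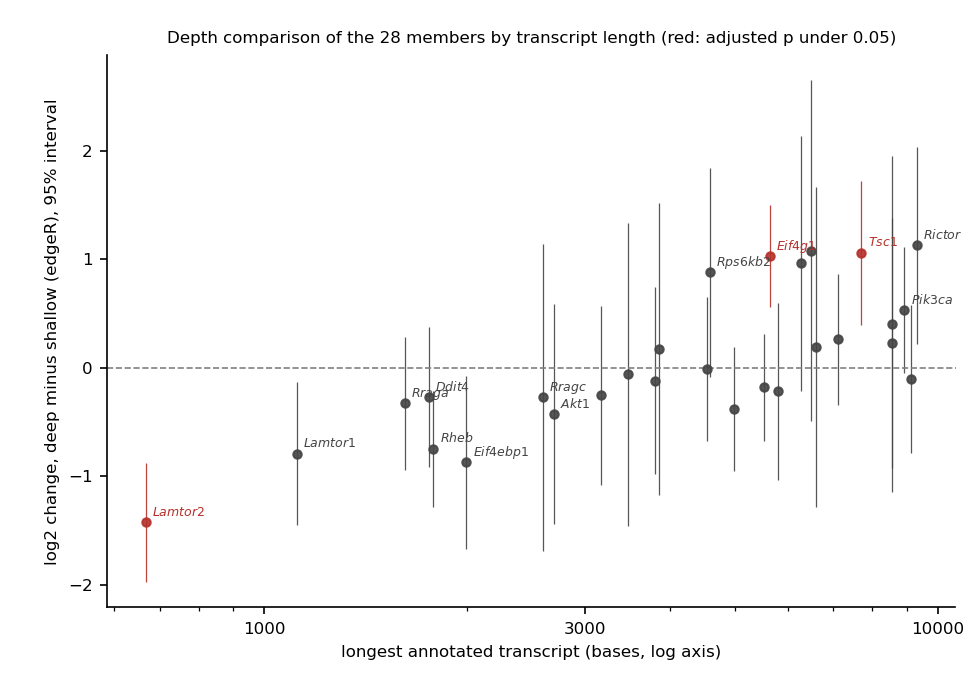
Log2 change between deep and shallow barcodes from edgeR (points, with 95% intervals) of the 28 members against the length of the longest annotated transcript in bases on a log axis; members with an adjusted p under 0.05 are red. Lamtor2, with 668 bases, is lowest at -1.43, and the members above 1 all have transcripts of 5638 bases or more.

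Other measures moved with depth as well. Mitochondrial genes took 5.64%, 11.1% and 6.30% of counts in deep and 2.83%, 11.5% and 5.32% in shallow barcodes. Globin and other erythroid markers took 101, 302 and 319 CPM in deep and 469, 648 and 1173 CPM in shallow barcodes, so RNA of red cells made up a larger share of the shallow ones. Microglial markers took 549, 2138 and 730 CPM in deep and 579, 262 and 508 CPM in shallow barcodes. Without barcodes called as another cell type, Eif4g1 (1.07), Tsc1 (1.10) and Lamtor2 (-1.63) all passed again. That call took out 48, 9 and 24 deep barcodes but only 27, 3 and 18 shallow ones, since few shallow barcodes can reach its counts. The shallow side was thus nearly unchanged, and this run cannot tell whether other cell types matter there. The part of free RNA in the shallow barcodes in these differences was not tested.

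Of the other pathway genes, 77 could be tested by depth, and 2 were higher and 1 lower in deep barcodes, a smaller share than the 8.08% of all genes. Eif4g3, which encodes another eIF4G scaffold, gave 0.86 on the log2 scale (SE 0.24, edgeR adjusted p = 0.009283). Fnip1, which encodes a partner of folliculin in the RAG GTPase arm, gave 1.24 (SE 0.38, adjusted p = 0.02243), and each was higher in all 3 tumours. Sec13, which encodes a subunit of an activator of the RAG arm and also a coat and nuclear pore protein, gave -0.95 (SE 0.33, adjusted p = 0.04879) and was lower in each tumour. DESeq2 called 0 of the 77, with 5 at an unadjusted p under 0.05, and gave 60 of them no adjusted p, Fnip1 and Sec13 included. Sec13 did not pass with limma-voom (adjusted p = 0.0736). Eef2, which encodes the elongation factor that the S6 kinase arm acts on, gave -0.69 (SE 0.25, adjusted p = 0.05738) and did not pass.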

How the data were processed

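Cells of 3 treated G-Smo tumours were dissociated with papain and their mRNA was read by Drop-seq (protocol 3.1), per the labels' protocols. The deposited values are whole-number counts for each gene in each barcode, not normalised. The submitters' processing notes list STAR and Cell Ranger without versions or roles, and GRCh38 as build, although the symbols are those of mouse genes. Coordinates of that build were therefore not used. Transcript lengths, gene spans and exon overlaps came from GENCODE M21, matched by symbol. Every deposited barcode holds at least 50 genes. Deep barcodes have at least 200 counts. Further cell filters and doublet removal were not applied, and cell types were not assigned. A barcode was called as another cell type with at least 3 counts of at least 2 genes of a marker list.

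Raw counts were summed per tumour and side of a split, and genes of at least 20 summed counts were tested with edgeR 4.0.16 (R 4.3.3, TMM, tumour as a block, adjusted p under 0.05). Both sides come from the same animals, which is the pairing. The labels number the tumours. With tumour as a block, the tests draw on how far the difference between sides varies over the tumours, not on the spread of levels between them. In the edgeR fits reported, the quasi-likelihood spread was shared fully over genes. The edgeR p-values and intervals thus do not measure a member's own spread between tumours. DESeq2 1.42.0, limma 3.58.1 (voom), other filters, depths (100 and 300 counts), at most 10% mitochondrial counts, thinning to 200 counts (seed 1) and leaving out tumours were alternatives. In the splits, the total behind a member's CPM leaves out the splitting genes, and that behind a marker list's CPM holds them. Tables and figures were made with pandas 2.3.3, scipy 1.17.1, numpy 2.4.6 and matplotlib 3.10.9 under Python 3.11.15. All 28 members are named, those of at least 100 counts with each tumour's value and those of at least 20 summed counts with their change; of the other pathway genes, those past the threshold in a split and up to 3 per subgroup with most counts could be named. The members and lists were chosen with earlier results of these data known. The depth comparison and the test across both splits were added after seeing the data, and Eif4g3 and Fnip1 are named for passing in the depth comparison.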

Additional observations from a re-analysis of the deposited data

How the results depend on the processing

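In both splits, 0 members and 0 other pathway genes passed under every alternative run. Where an alternative calls few or no genes at all, this says nothing of stability. Among the members, the sign of an uncalled log2 change differed from that reported in 34 of 308 values for the Neurod1 split, 29 of 295 for the proliferation split and 19 of 350 for the depth comparison, with unadjusted p-values from 0.258, 0.38 and 0.616 upwards, so these signs are not settled. No member called in any fit changed sign. The numbers of genes called moved more. For the Neurod1 split edgeR called 62 genes, against 34 with a minimum of 50 counts, 39 with no filter, 31 with barcodes of at least 100 counts, 6 after thinning and 35 within barcodes free of Mki67 and Top2a. DESeq2 and limma-voom called 0 there, with 91 and 458 genes at an unadjusted p under 0.05. For the proliferation split the count was 168, against 34 with DESeq2, 27 with limma-voom, 103 with a minimum of 50 counts, 110 with barcodes of at least 300 counts, 30 after thinning and 64 within barcodes free of Neurod1. For the depth comparison it was 858, against 237 with DESeq2. Of other pathway genes, 3 passed by depth, against 5 with library size alone, 5 with limma-voom, 6 with a minimum of 50 counts, 6 against barcodes below 100 counts and 0 with DESeq2. Without tumour as the replicate block, edgeR called 2, 65 and 4 genes in the Neurod1, proliferation and depth comparisons. Without the block 0 members and 0 other pathway genes passed by depth, with 5 and 7 at an unadjusted p under 0.05. Leaving out 1 tumour at a time gave 0 to 209 genes for the Neurod1 split (209 without tumour 2), 9 to 135 for the proliferation split (9 without tumour 1 and 21 without tumour 3) and 0 to 1755 by depth (32 without tumour 1 and 0 without tumour 3). By depth it gave 0 to 6 members and 0 to 10 other pathway genes. Tsc1 did not pass by depth without a filter on low counts (adjusted p = 0.07356, edgeR), while Eif4g1 and Lamtor2 passed with DESeq2 too, which gave 23 of the 28 members no adjusted p. The cause of these shifts was not tested. The summed member level was 2028 CPM on non-mitochondrial counts alone and 2038 CPM in deep barcodes, both within 1 SD of the 1893 in the totals. Depth limits the splits: tumour 2 had 148 deep barcodes, and 8 members had too few counts over the sums of all tumours to be tested.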
